A study of Mus musculus with 6 samples.

Results

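The genes described here are the receptor for parathyroid hormone and its relative PTHrP, the gene of that ligand, and the proteins that first carry or modulate the receptor's signal. All 8 were chosen by name: Pth1r, Pthlh, Gnas, Gnaq, Gna11, Arrb1, Arrb2 and Slc9a3r1. Each has a row in the table of 17213 genes with whole-number counts, and all 8 were among the 14632 genes left by a filter on low counts.

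RNA came from 6 libraries of mouse cells, 3 labelled Het and 3 labelled KO, with replicates numbered 0, 1 and 2. The genotype labels are Pth1r(+/-) for the libraries labelled Het and Pth1r(-/-) for those labelled KO, so the comparison group carries a lost allele too, and the alleles are conditional. All cells were sorted as tdTomato+ from the dental follicle of mandibular molars at postnatal day 8 and are labelled PTHrP+. The dental follicle is the mesenchymal sac around the developing tooth, from which cementum, the periodontal ligament and part of the alveolar bone form. Tamoxifen was given in both groups, at day 3 by the series text and at day 8 by the sample labels. The sources used here do not give the Cre driver, the strain, the part of Pth1r that is removed or the number of animals behind a library. The study's question was what receptor loss does to gene expression in the cells that make the ligand.

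Pth1r is a class B G protein-coupled receptor. Once bound by its ligand it activates Gs alpha, the product of Gnas, which raises cyclic AMP, and it can also activate Gq and G11 alpha, which act through phospholipase C beta. Beta-arrestins, encoded by Arrb1 and Arrb2, bind the phosphorylated receptor and direct it into the cell. NHERF1, the product of Slc9a3r1, is a scaffold with PDZ domains that holds the tail of the receptor near the membrane skeleton. In the tooth, signalling from PTHrP to this receptor is needed for eruption.

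The receptor meets NHERF1 through its own last residues, and G alpha subunits meet the receptor through theirs. These ends are shown 5′ to 3′ from GENCODE M21 transcripts as the last 33 coding bases and the stop codon, with the final 4 codons in capitals. In Pth1r the capitals mark the codons of the PDZ-binding tail, and in the G alpha genes those of the end that docks into the activated receptor.
Pth1r: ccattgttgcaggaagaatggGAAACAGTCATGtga
Gnas: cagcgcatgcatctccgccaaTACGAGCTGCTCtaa
Gnaq: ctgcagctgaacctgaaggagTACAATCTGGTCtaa
Gna11: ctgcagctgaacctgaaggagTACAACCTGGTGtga
Gnaq and Gna11 were identical at 31 of these 33 bases and at all 11 encoded residues, whereas Gnas matched Gnaq at 18 bases and 3 residues. Over whole reading frames, Gnaq and Gna11 shared 80.7% of coding bases and 89.1% of residues. Arrb1 and Arrb2 shared 72.0% of coding bases and 76.6% of residues. The longest run of identical coding bases was 38 for the Gq pair and 18 for the arrestin pair, so reads falling wholly within the former could not be assigned by sequence.

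The libraries held 34019925 to 66147200 counts. Het replicate 2 lay away from the rest along principal component 1 (38.6% of variance) and, scaled to the smallest library total, was expected to show 14653 genes against 15175 to 15911 in the other 5. CPM are a gene's counts scaled to a common library size by TMM, which corrects for library composition. All 10 markers of dental mesenchyme and follicle were above 0 in every library. They summed to 24142 to 55167 CPM with the label Het and to 39123 to 68009 CPM with the label KO. The collagen genes Col1a1 and Col3a1 made up most of these sums. Fitted log2 fold changes were above 0 for 4 of these 10 markers, with a median of -0.35. Dental epithelium markers summed to 5292 to 8536 and 5212 to 10862 CPM in the same order, with fitted values above 0 for 5 of 10. Osteoblast markers summed to 4779 to 11847 and 12593.5 to 21088 CPM, with fitted values above 0 for 9 of 9, where 49% of all genes tested lay above 0. No osteoblast marker was at 0 in any library. Odontoblast markers summed to 85.3 to 156 and 186 to 611 CPM, with fitted values above 0 for 1 of 3. That was Dmp1, which belongs to both of these lists, at 29.0 to 84.8 and 138 to 536 CPM. Dspp, at 10.2 to 24.9 and 16.9 to 18.1 CPM, and Nes, at 34.0 to 62.0 and 30.0 to 56.1 CPM, overlapped. Endothelial markers summed to 10 to 19.4 and 5.63 to 8.25 CPM, with Tek, Emcn, Tie1 and Flt1 at 0 in at least 1 library. Of the 6 endothelial markers tested, 2 had fitted values above 0. Erythroid markers summed to 9.15 to 21.3 and 12.8 to 43.7 CPM, with fitted values above 0 for 2 of the 3 tested. Macrophage and leukocyte markers summed to 19.3 to 87.8 and 27.4 to 141 CPM, with fitted values above 0 for 9 of 9 and with Emr1 and C1qa at 0 in at least 1 library.

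In bulk RNA, fewer cells of a kind and less RNA per cell cannot be told apart. Nothing in the labels says that libraries of a group come from separate animals, so each p-value reflects the variation among these 6 samples alone, and that variation may be technical.

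Pth1r lies on the minus strand of chromosome 9 (mm10, 110722085 to 110747145), with up to 16 exons in a GENCODE M21 transcript. As the targeted gene it was examined first. It was at 371, 286 and 346 CPM in Het replicates 0, 1 and 2, and at 961, 608 and 472 CPM in KO replicates 0, 1 and 2. Every library labelled KO was thus above every library labelled Het, with KO replicate 0 the highest. The mean was 2.03 times as high in the libraries labelled KO (680 ± 253 against 334 ± 43.9 CPM, SD, n = 3). Pth1r was the only one of the 8 genes whose groups did not overlap, which held for 10.7% of all genes tested (5.84% with KO above Het and 4.83% with KO below).

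The fitted log2 fold change of Pth1r, 1.02 with a standard error of 0.28, was larger than that of 95.2% of genes tested. It did not pass edgeR's quasi-likelihood test (adjusted p = 0.740), and exact permutation of the 6 libraries (two-sided, on log2 CPM) gave p = 0.1, the lowest value this design can reach. DESeq2 gave an adjusted p of 0.0564. It passed in DESeq2 once Het replicate 2, which lay away from the rest, was left out (adjusted p = 0.0232, a setting chosen after seeing the data). Fits with the replicate number as a block, in which edgeR and DESeq2 differ, are given in the closing section. The direction of the Pth1r difference goes against the genotype labels. Counts over a whole gene do not say whether the part removed by recombination was among the transcribed exons, nor whether the labels of the groups were exchanged, which would turn every direction given here. Pth1r shares 95 exonic bases with Myl3 on the opposite strand. Myl3 averaged 1.05 CPM with the label Het and 0.741 CPM with the label KO. Without the strand setting of the counting, reads over the shared bases cannot be placed, and their part in the Pth1r counts was not tested. The sums of osteoblast markers given above did not overlap between the groups either, and their part in the Pth1r difference was not tested. Ibsp made up most of these sums and overlapped, at 3112 to 10458.5 CPM with the label Het and 9714 to 16424 CPM with the label KO. Of the 9 osteoblast markers, only Spp1, at 177 to 310 and 457 to 580 CPM, and Dmp1, at 29.0 to 84.8 and 138 to 536 CPM, did not overlap. Sp7 was among those that overlapped, at 151 to 381 and 318 to 499.7 CPM. Phex was lowest in KO replicate 2, at 0.628 CPM.

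**Figure D1:**
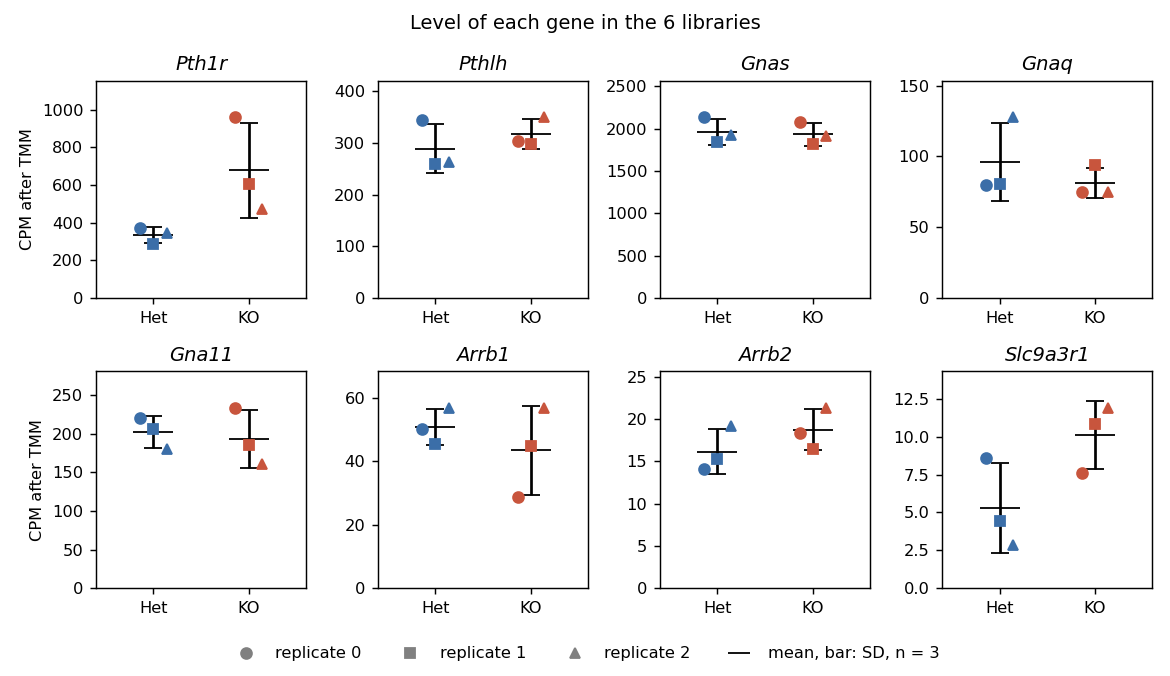
CPM after TMM scaling of the 8 genes in each library, with a linear axis from 0 in every panel. Points are libraries, marker shapes give the replicate number, and black bars show the mean and SD of 3 libraries. Pth1r alone has no overlap between the groups, with 286 to 371 CPM in Het and 472 to 961 CPM in KO.

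**Figure D2:**
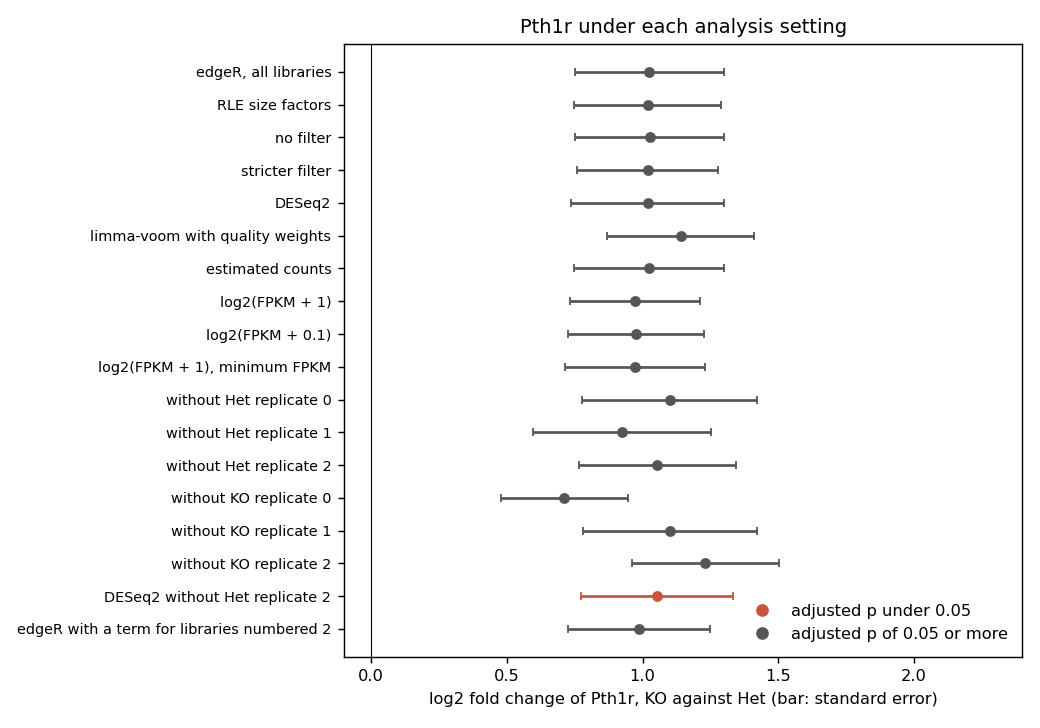
Log2 fold change of Pth1r with its standard error under the analysis settings tried, without those that use the replicate number as a block. All values lie above 0, between 0.71 without KO replicate 0 and 1.23 without KO replicate 2, and red marks the setting with an adjusted p under 0.05.

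RefSeq lists 3 transcription starts for Pth1r, and gene-level counts do not say which was used. The 250 bases before the first and the second start are shown to show how the sequence before the receptor's alternative starts differs. They were read from RefSeq's promoter table (GRCm38.p6, minus strand, 5′ to 3′), and capitals mark GC boxes (GGGCGG, searched on both strands).
Pth1r start 1, chr9:110747146-110747395: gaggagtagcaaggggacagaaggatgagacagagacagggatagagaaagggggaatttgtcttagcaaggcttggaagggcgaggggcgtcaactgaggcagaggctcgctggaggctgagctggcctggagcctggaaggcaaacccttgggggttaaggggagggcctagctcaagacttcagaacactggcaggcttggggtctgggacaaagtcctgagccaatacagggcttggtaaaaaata
Pth1r start 2, chr9:110743687-110743936: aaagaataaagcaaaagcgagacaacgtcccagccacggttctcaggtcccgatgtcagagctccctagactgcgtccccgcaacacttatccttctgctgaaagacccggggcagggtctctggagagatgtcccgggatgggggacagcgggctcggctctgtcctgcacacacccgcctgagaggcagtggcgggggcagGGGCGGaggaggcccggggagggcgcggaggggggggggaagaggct
The first window had 56% G and C, 3 CpG pairs and 0 GC boxes. The second had 65.6% G and C, 16 CpG pairs and 1 GC box. The window before the third start had 70.4% G and C, 22 CpG pairs and 4 GC boxes, and overlaps an annotated untranslated region at 109 bases. A GC box was found in 32.7% of 32817 RefSeq promoter windows of this length. A TATA box (TATAAA, both strands) was in 0 of the 3 windows and in 12.4% of all. The cyclic AMP response element (TGACGTCA) was in 0 of the 3 and in 1.55% of all. Its 5-base core (TGACG, both strands, also part of the full element) was in the first window only, and in 17.7% of all. Of the 8 genes, 6 had an entry in that table.

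Pthlh, on the minus strand of chromosome 6 (147252101 to 147264183), encodes PTHrP, the ligand by which the cells are labelled. It was at 344, 260 and 263 CPM in Het replicates 0, 1 and 2, and at 303, 298 and 350 CPM in KO replicates 0, 1 and 2. The ligand RNA was abundant in all 6 libraries and the groups overlapped. The fitted change was 0.13 on the log2 scale (standard error 0.19; edgeR's quasi-likelihood test, adjusted p = 0.981).

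The receptor was also set against its ligand within each library, per length, in FPKM (fragments scaled by transcript length and library size). The log2 ratio of Pth1r to Pthlh FPKM came to -0.49, -0.41 and 0.21 for the libraries labelled Het, in the order of replicates 0, 1 and 2. For those labelled KO it came to 1.04, 0.44 and 0.32. By this measure, ligand RNA exceeded receptor RNA in Het replicates 0 and 1. Receptor RNA exceeded ligand RNA in Het replicate 2 and all 3 libraries labelled KO. The FPKM scaling of the libraries numbered 2, taken up below, enters the values of Het replicate 2 and KO replicate 2. In CPM, receptor RNA was above ligand RNA in every library, but CPM are not scaled by length. The longest annotated transcript has 2307 bases for Pth1r and 1603 for Pthlh, so CPM alone do not order the pair. The mean log2 FPKM ratio was higher by 0.83 in the libraries labelled KO (0.60 ± 0.38 against -0.23 ± 0.38, SD, n = 3). The exact two-sided permutation test gave p = 0.1, the smallest possible. The other hormone of the family, Pth, the related peptide gene Pth2 and its receptor gene Pth2r had 0 estimated counts in all 6 libraries. A floor of 3 counts per library allows up to 0.0449 to 0.0873 CPM, for counting error only.

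Gnas, on the plus strand of chromosome 2 (174284320 to 174346744), encodes Gs alpha and is an imprinted locus with several promoters. It was the most abundant of the 8 genes and the least changed. Its level was 2137, 1838 and 1920 CPM in Het replicates 0, 1 and 2, against 2080, 1814 and 1914 CPM in KO replicates 0, 1 and 2. The highest library was 1.18 times the lowest, and the groups overlapped throughout. The fitted change was -0.02 on the log2 scale (standard error 0.18; edgeR's quasi-likelihood test, adjusted p = 0.999), and 5.11% of genes tested had a smaller absolute change. Its sign turned when Het replicate 0 (0.037) or KO replicate 1 (0.024) was left out, and in limma-voom with quality weights (0.0077). The strand setting of the counting is not given, and Gnas shares 988 exonic bases with the antisense gene Nespas. Nespas averaged 1.96 CPM with the label Het and 2.12 CPM with the label KO. Gm20721, also on the opposite strand, shares 1469 exonic bases with Gnas and has no row among the counts, so its level is unknown here. Counts per symbol also pool Gs alpha with the other products of the locus.

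Gna11, on the minus strand of chromosome 10 (81528724 to 81545190), was at 220, 206 and 180 CPM in Het replicates 0, 1 and 2, against 234, 185 and 160 CPM in KO replicates 0, 1 and 2. Both groups had their lowest library in replicate 2, and they overlapped. The fitted change was -0.07 on the log2 scale (standard error 0.20; edgeR's quasi-likelihood test, adjusted p = 0.988), and it became 0.052 without KO replicate 2.

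Gnaq, on the plus strand of chromosome 19 (16132831 to 16387463), was at 79.8, 80.4 and 128 CPM in Het replicates 0, 1 and 2. In KO replicates 0, 1 and 2 it was at 74.8, 93.8 and 74.9 CPM. Het replicate 2 was high and the other 5 libraries lay close together. The log2 fold change of -0.24 (standard error 0.24; edgeR's quasi-likelihood test, adjusted p = 0.976) became 0.026 without Het replicate 2. In FPKM the same library was not high, at 15.5 against 14.3 and 15.5 in the other libraries labelled Het.

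Per length, Gna11 supplied most of the Gq class RNA. Its share of the summed FPKM of Gna11 and Gnaq was 82.5%, 80.9% and 79.2% in Het replicates 0, 1 and 2, against 83.9%, 76.3% and 86.0% in KO replicates 0, 1 and 2. The mean share was 80.9 ± 1.67% in the libraries labelled Het and 82.0 ± 5.10% in those labelled KO (SD, n = 3; exact two-sided permutation test, p = 0.7). The difference of 1.15 percentage points turned to -0.814 without KO replicate 2. In CPM the mean share was 67.9 ± 8.22% and 70.1 ± 4.97% (the same exact test, p = 0.8), with Het replicate 2 at 58.5%. Gnas exceeded Gna11 by 18.5 to 26.8 times in FPKM and Gnaq by 66.1 to 164 times, in every library. Both upper ends came from KO replicate 2, and the FPKM scaling of the libraries numbered 2 is taken up below.

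Arrb1, the gene of beta-arrestin 1, lies on the plus strand of chromosome 7 (99535466 to 99606771). It was at 50.1, 45.4 and 56.9 CPM in Het replicates 0, 1 and 2 and at 28.8, 44.9 and 56.7 CPM in KO replicates 0, 1 and 2. KO replicate 0, the library with the most Pth1r, had the least Arrb1, and the other 5 libraries lay between 44.9 and 56.9 CPM. The log2 fold change of -0.23 (standard error 0.27; edgeR's quasi-likelihood test, adjusted p = 0.981) became 0.014 without that library.

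Arrb2, the gene of beta-arrestin 2, lies on the plus strand of chromosome 11 (70432635 to 70440828). Its level was 14.1, 15.3 and 19.2 CPM in Het replicates 0, 1 and 2, against 18.4, 16.5 and 21.4 CPM in KO replicates 0, 1 and 2. Replicate 2 was the highest library of each group and the groups overlapped. The fitted change was 0.22 on the log2 scale (standard error 0.26; edgeR's quasi-likelihood test, adjusted p = 0.981).

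The arrestin genes change places with the scale. Arrb1 had more counts, but its longest annotated transcript has 7135 bases against 1848 for Arrb2, and per length Arrb2 was 1.29 to 2.90 times as abundant in all 6 libraries. Arrb1 made up 43.7%, 38.9% and 33.9% of arrestin FPKM in Het replicates 0, 1 and 2, against 25.6%, 36.6% and 31.3% in KO replicates 0, 1 and 2. The share was 38.8 ± 4.86% against 31.2 ± 5.49% (SD, n = 3), and the groups overlapped (exact two-sided permutation test, p = 0.2). In CPM it was 75.9 ± 1.88% against 68.9 ± 6.84% with no overlap (the same exact test, p = 0.1). Without KO replicate 0 the FPKM difference went from -7.67 to -4.90 percentage points.

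Slc9a3r1, the gene of NHERF1, lies on the plus strand of chromosome 11 (115163341 to 115181181) and was the least abundant of the 8 genes by counts. It had 533, 159 and 101 counts in Het replicates 0, 1 and 2, or 8.57, 4.43 and 2.84 CPM. In KO replicates 0, 1 and 2 it had 463, 660 and 626 counts, or 7.60, 10.8 and 11.9 CPM. Het replicate 0 lay above KO replicate 0, so the groups overlapped, and Het replicates 1 and 2 were the lowest libraries. The fitted change was 0.94 on the log2 scale (standard error 0.47), the second in size after Pth1r, and did not pass edgeR's quasi-likelihood test (adjusted p = 0.976). It became 1.47 without Het replicate 0 and 0.65 without Het replicate 2. NHERF1 is also abundant in epithelia. The epithelial marker Krt5 was at 624, 374 and 364 CPM in Het replicates 0, 1 and 2, and at 256, 428 and 625 CPM in KO replicates 0, 1 and 2. Epcam was at 57.1, 122 and 118 CPM and at 55.3, 75.1 and 147 CPM in the same order. Cdh1 was at 48.1 to 63.1 CPM with the label Het and 47.7 to 77.9 CPM with the label KO. Krt5 and Krt14 ordered the libraries within each group as Slc9a3r1 did, and the other epithelial markers listed did not. Ambn and Amelx made up most of the epithelial sums given above. The part of epithelial cells in the Slc9a3r1 values was not tested.

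Across the 8 genes, 0 passed an adjusted p of 0.05 in edgeR, where 0% of all 14632 genes tested passed, and 0 passed in DESeq2, where 0.509% of genes did. At an unadjusted edgeR p under 0.05 there was 1, Pth1r, against 4.29% of all genes tested (2.58% higher and 1.71% lower). Fitted values were above 0 for 4 genes and below 0 for 4. The median log2 fold change was 0.06, beside -0.01 for all genes tested, and the median absolute change was 0.22, beside 0.26.

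**Figure D3:**
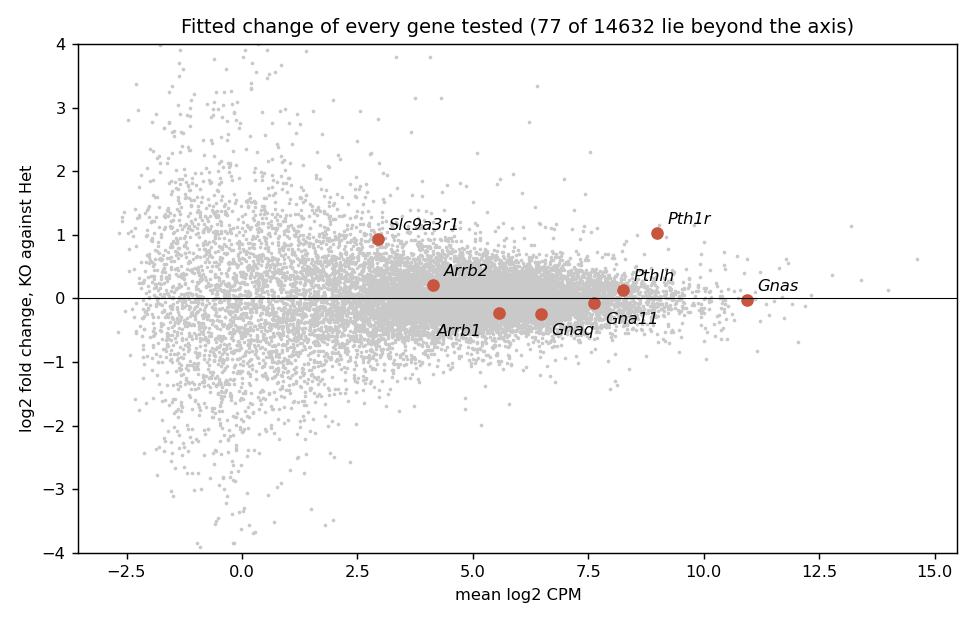
Log2 fold change of the libraries labelled KO against those labelled Het, plotted over mean log2 CPM for the 14632 genes tested (grey), of which 77 lie beyond the vertical axis. The 8 named genes are in red, with Pth1r at 1.02 and Slc9a3r1 at 0.94, while the other 6 lie within 0.24 of 0.

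Ordered by FPKM, Gnas ranked 1 and Gna11 ranked 4 in every library. Gnas was at 1176 to 1495 FPKM, Pth1r at 152 to 465, Pthlh at 188 to 260 and Gna11 at 55.8 to 70.3. Then came Gnaq at 9.11 to 17.8 FPKM, Arrb2 at 8.70 to 16.3, Arrb1 at 3.82 to 7.40 and Slc9a3r1 at 1.87 to 8.02. Pth1r and Pthlh changed places between libraries. Gnaq and Arrb2 changed places in KO replicate 2, and Arrb1 and Slc9a3r1 in KO replicates 0 and 2, so these neighbours cannot be ordered beyond their spread. The gap between receptor and arrestins was wide, with Pth1r at 15.6 to 41.9 times Arrb2.

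**Figure D4:**
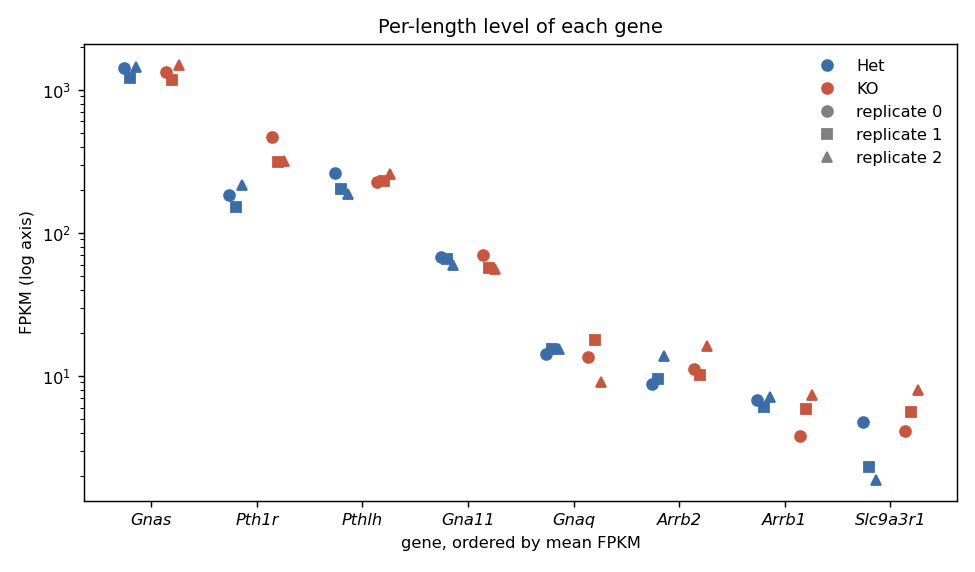
FPKM of the 8 genes on a log axis, ordered by their mean over the 6 libraries. Points are single libraries, with colour for the group and shape for the replicate number. Gnas lies at 1176 to 1495 FPKM in all libraries and Arrb1 and Slc9a3r1 at the low end, at 8.02 or less.

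The FPKM values of replicate 2 need care in both groups. FPKM divided by CPM depends on the length assigned to a gene. For Pth1r it was 0.499, 0.532, 0.483 and 0.512 in replicates 0 and 1 of both groups, but 0.624 in Het replicate 2 and 0.678 in KO replicate 2. Gnas, Gna11, Arrb2 and Slc9a3r1 were likewise higher in both libraries numbered 2, and Gnaq was lower, at 0.122 and 0.122 against 0.180 to 0.193. Of 10576 genes, 35.3% had both libraries numbered 2 above the other 4 and 50.4% had both below. The longest annotated transcript had a median of 2723 bases in the former and 3858 bases in the latter. The reason was not tested. For Pthlh the value in Het replicate 2 was 0.714, against 0.757 and 0.778 in Het replicates 0 and 1. In KO replicate 2 it was 0.731, against 0.749 and 0.770 in KO replicates 0 and 1. Pth1r and Pthlh thus moved in opposite ways in both libraries numbered 2. In both, receptor FPKM exceeded ligand FPKM, an order that may depend on this scaling. In CPM, where this scaling does not enter, the difference of the log2 ratio between the groups was 0.83 as well. The shift fell on replicate 2 of both groups in the same direction, so it nearly cancels in this difference. The ratios in CPM were 0.11, 0.14 and 0.40 in Het replicates 0, 1 and 2. In KO replicates 0, 1 and 2 they were 1.67, 1.03 and 0.43. All lay above 0 without a correction for length, and Het replicate 2 was still the highest of its group, close to KO replicate 2.

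Within numbers, the ratio of Pth1r CPM in libraries labelled KO to those labelled Het was 2.39 over replicates 0 and 1 and 1.36 in replicate 2, where each group has 1 library and no test can be made. For Slc9a3r1 these ratios were 1.42 and 4.20. With a term for the libraries numbered 2, chosen after seeing the data, the log2 fold change of Pth1r was 0.99 (edgeR's quasi-likelihood test, adjusted p = 0.678).

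**Figure D5:**
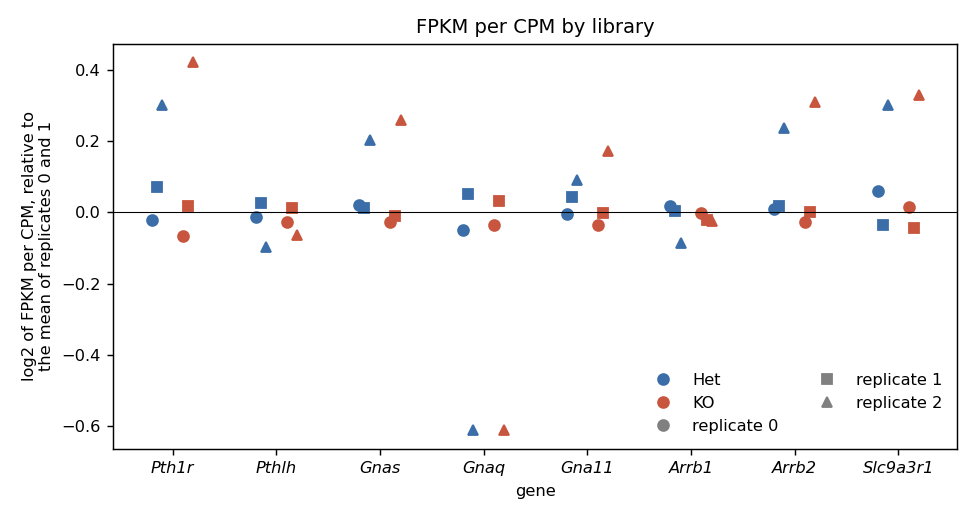
Log2 of FPKM per CPM for the 8 genes, relative to the mean of the 4 libraries numbered 0 and 1. Triangles, the libraries numbered 2, stand away from the other points for most genes, for example at 0.122 FPKM per CPM for Gnaq against 0.180 to 0.193.

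Other genes of the pathway were taken from lists of G protein subunits, receptor kinases, phospholipases and trafficking proteins, 62 symbols of which 58 were in the count table and 56 were tested. With edgeR, 0 of the 56 passed an adjusted p of 0.05, and 0 passed with DESeq2. At an unadjusted p under 0.05 there was 1. Fitted values were above 0 for 24 and below 0 for 32, with a median log2 fold change of -0.09. Groups did not overlap for 7 genes, 4 higher and 3 lower, or 12.5% against 10.7% of all genes tested. Highest per length were Gnai2, an inhibitory G alpha subunit, at 375 FPKM under the label Het and 422 under the label KO, and Ap2m1, a subunit of the clathrin adaptor, at 421 and 377 FPKM.

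Receptor kinases phosphorylate the receptor before arrestin binds. Adrbk1, the older symbol of GRK2, was at 27.0, 22.7 and 23.6 CPM in Het replicates 0, 1 and 2 and at 39.3, 30.4 and 33.1 CPM in KO replicates 0, 1 and 2. All libraries labelled KO were higher, with a log2 fold change of 0.49 (edgeR's quasi-likelihood test, unadjusted p = 0.0476, adjusted p = 0.976). Its relative Adrbk2, or GRK3, ranged from 19.1 to 61.0 CPM among libraries labelled Het and from 15.9 to 34.8 CPM among those labelled KO, with overlap. Of the 5 kinase genes, 1 had a fitted value above 0.

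Among 10 other G alpha subunits, 6 had fitted values above 0, with Gna13 at 35.5 ± 9.09 CPM under the label Het and 43.8 ± 15.2 CPM under the label KO (SD, n = 3). Gna14, a further member of the Gq class, was low, at 3.39 ± 3.56 and 1.30 ± 0.628 CPM, and its Het mean rests on Het replicate 2 at 7.47 CPM. Of 14 G beta and gamma genes tested, 11 had fitted values below 0. Gng11 was at 28.6 ± 7.40 and 19.5 ± 1.67 CPM and Gng3 at 1.06 ± 0.423 and 0.353 ± 0.184 CPM, without overlap in both cases. The G alpha chaperone genes Ric8, now Ric8a, and Ric8b were at 115 ± 16.4 and 104 ± 5.95 CPM and at 34.1 ± 7.97 and 33.04 ± 6.59 CPM.

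Phospholipase C beta is the effector of Gq and G11. Its most abundant gene by counts, Plcb3, had a mean of 80.8 ± 20.8 CPM (SD, n = 3) under the label Het and 108 ± 17.1 CPM under the label KO. Plcb2 was at 2.78 ± 2.25 and 1.02 ± 1.61 CPM. Of 21 NHERF partner and trafficking genes, 13 had fitted values above 0. Msn, encoding moesin, a membrane-cytoskeleton linker of the family NHERF1 binds, was at 240 ± 29.8 and 312 ± 30.0 CPM. Dnm2, encoding the dynamin that pinches off endocytic vesicles, was at 216 ± 19.2 and 278 ± 35.6 CPM. The groups did not overlap for Msn and Dnm2 (adjusted p = 0.976 for both in edgeR's quasi-likelihood test).

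Among 6352 genes whose mean log2 CPM was 5 or more, the 5 whose log2 CPM followed that of Pth1r most closely over the 6 libraries were Gprc5c (Pearson's r = 0.990), Entpd3 (0.986), Mybbp1a (0.983), Colec12 (0.981) and Tmem119 (0.978). These values are a description, since the points share libraries and the group difference. Gprc5c, an orphan G protein-coupled receptor, averaged 42.9 ± 8.61 CPM under the label Het and 93.7 ± 38.1 CPM under the label KO. Tmem119, a membrane protein known from osteoblasts, was at 747 ± 137 and 1208 ± 275 CPM. Their likeness to Pth1r, whose groups did not overlap, chose these 5 genes, so their own group values are no separate result. Of the 5, 0 passed edgeR's quasi-likelihood test (adjusted p = 0.740 to 0.976) or DESeq2 (adjusted p = 0.0770 to 0.535).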

How the data were processed

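Per the labels' protocols, sorted tdTomato+ cells gave total RNA (PicoPure kit), from which cDNA was made by low-input SMART-Seq and sequenced as Nextera XT libraries. The build was mm10, and the tools were TopHat2 2.0.13 with Bowtie2 2.2.1, HTSeq, Cufflinks with Cuffdiff, DESeq2 and FastQC, per the submitters' processing notes, which state no roles. The annotation and strandedness behind the counts were not given in the sources used here. Tests used the authors' deposited table of whole-number counts, 1 row per gene symbol. A second deposited table holds estimated counts, rounded here; 42 of 48 values of the 8 genes were equal within 1e-09 and none differed by more than 6. Another deposited table holds FPKM values from the authors. Scaled and regularised log tables were not used.

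Groups came from the sample titles. Between any 2 libraries, chi-square divided by its degrees of freedom was at least 93.8, so none was taken for another deposited again. This ratio covers counting error only and does not show that the libraries come from separate RNA samples. Counts were fitted over all genes in R 4.3.3 with edgeR 4.0.16 (TMM, default filter, quasi-likelihood test, Benjamini-Hochberg adjustment, threshold 0.05, two-sided). DESeq2 1.42.0 and limma 3.58.1 were alternatives. Standard errors of edgeR values were derived from the F statistic. CPM and FPKM are given as mean ± SD. Fold changes in FPKM fits are on a log2(FPKM + 1) or log2(FPKM + 0.1) scale, which understates changes of low genes. The scripts were tested on simulated data. The genes, lists and tests were chosen with earlier results of these data known. Named were the 8 genes, up to 2 per pathway list with the smallest unadjusted p, and the 5 genes most like Pth1r over the libraries, skipping predicted genes. Single further genes were named after their values were seen: Gnai2 and Ap2m1 as the most abundant pathway genes, and Myl3 and Nespas as overlapping genes, and single markers.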

Additional observations from a re-analysis of the deposited data

How the results depend on the processing

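The log2 fold change of Pth1r was above 0 in all settings run, and leaving out 1 library gave 0.71 to 1.23 in edgeR. It passed the threshold in DESeq2 without Het replicate 2 (1.05, adjusted p = 0.0232) and in DESeq2 with a replicate block (0.97, adjusted p = 0.00416). Pth1r was the 1 of 8 genes called in both, where 175 of 17162 and 185 of 15544 of all genes passed. In edgeR with the replicate block its log2 fold change was 0.97 (adjusted p = 0.797). Same-numbered libraries deviated together weakly, with correlations of 0.17, 0.07 and 0.07, though each library was closest to its own number. The libraries numbered 2 also shared a shift in FPKM per CPM. Because the correlations were weak, the main fits did not pair the samples by number, and whether the numbers pair them was not settled. With the block, an exact sign-flip test of the 3 differences of the Pth1r to Pthlh ratio, mean 0.83, gave p = 0.25, the smallest possible.

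Of all genes, 0 of 14632 passed in edgeR, with and without the block, and 87 of 17084 passed in DESeq2. With the block, 185 of 15544 passed in DESeq2, and without Het replicate 2, 175 of 17162 did. The stricter filter (at least 5 CPM in 3 libraries), limma-voom with quality weights and each of the 3 FPKM fits gave 1 (log2(FPKM + 1), log2(FPKM + 0.1), and a minimum FPKM of 1 in 3 libraries). Leaving out 1 library gave 0 to 1. No pathway gene passed in any of these fits.

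Directions near 0 turned. Leaving out 1 library gave -0.46 to 0.014 for Arrb1, -0.21 to 0.052 for Gna11, -0.36 to 0.026 for Gnaq and -0.067 to 0.037 for Gnas. For Gnaq, DESeq2 without Het replicate 2 gave 0.024. For Gnas, limma-voom gave 0.0077. The Gna11 share differed by -0.814 to 4.03 percentage points. The cause was not tested. Pthlh, Arrb2 and Slc9a3r1 stayed above 0 in the settings run, but leaving out 1 library gave 0.057 to 0.27 for Pthlh (lowest without KO replicate 2, highest without Het replicate 0), 0.11 to 0.36 for Arrb2 (lowest without KO replicate 2, highest without Het replicate 2) and 0.65 to 1.47 for Slc9a3r1. The Arrb1 share differed by -10.4 to -4.90 percentage points and the Pth1r to Pthlh log2 ratio by 0.61 to 1.05. Groups of 3 libraries limit all tests here, and for Slc9a3r1 counts of 101 to 660 per library limit the precision too.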
